A study of Rattus norvegicus with 3 samples.

Results

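The genes described here encode subunits of respiratory complexes II, III, IV and V, the part of the mitochondrial inner membrane machinery that follows complex I. A gene was included when a probe set of the array listed it as its only gene and its symbol was that of a succinate dehydrogenase subunit, a cytochrome bc1 complex subunit, cytochrome c1, a cytochrome c oxidase subunit or an ATP synthase subunit. This gave 53 probe sets for 47 genes, of 14217 genes measured in all, with 4 genes for complex II, 8 for complex III, 19 for complex IV and 16 for complex V. Where a gene had several probe sets, as 5 did, it is represented by the brightest, judged by mean log2 signal.

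Transcripts were profiled on 3 Affymetrix arrays of the medullary thick ascending limb (mTAL), the salt-reabsorbing tubule segment of the outer medulla, from male Sprague-Dawley rats aged 7 to 8 weeks. All samples form 1 group without a control or another tissue. Heparin (250 u) and furosemide (1 mg), a blocker of salt transport in this very segment, had been injected into every animal 30 min before death, and the tubules were freed with collagenase and hyaluronidase for 60 min and collected on a 33.3% Percoll gradient. No label tells separate rats from pooled tissue, so the p-values cover the spread among these 3 samples alone, and that spread may be technical.

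Complex II oxidises succinate and feeds electrons to ubiquinone. Complex III passes them to cytochrome c, complex IV hands them to oxygen, and complex V, the ATP synthase, uses the proton gradient that results. The mTAL drives its sodium pump almost wholly with ATP from this chain and is known for densely packed mitochondria in a part of the kidney where oxygen is scarce.

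The values are probe set signals on the linear scale that was deposited, with mean ± SD over the 3 arrays (n = 3 throughout). A gene was called detected when its log2 signal exceeded a background cutoff in limma's one-sided test, with Benjamini-Hochberg adjusted p under 0.05 over all genes. The cutoff was set on each array as the 95th percentile of 73 genes known from other tissues, and it lay at a signal of 542, 507 and 499 on replicates 1, 2 and 3. Probe sets bind their targets with unequal strength, so signals of different probe sets cannot be read as relative amounts of transcript, and an order of genes below is an order of signals.

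Of the 47 genes, 40 were detected, or 85.1%, against 48.6% of all genes measured. All 4 genes of complex II, all 8 of complex III and all 16 of complex V were detected, and 12 of the 19 of complex IV. The 7 not detected were all listed under complex IV: Cox4i2, Cox6a2, Cox6b2, Cox7a1, Cox7b2, Cox8b and Cox6c-ps1, a pseudogene of Cox6c. The median log2 signal of the 47 lay 5.68, 5.48 and 5.43 above the array's median gene on replicates 1, 2 and 3, where the median gene is 0 by construction. Of the 20 genes with the highest signal on these arrays 8 were members, of the highest 100 there were 26, and of the highest 500 there were 37. For comparison, 33 of 33 subunits of complex I and 73 of 73 mitochondrial ribosomal proteins were detected. With the cutoff moved up to the 99th percentile, 39 of the 47 members were still detected, against 5.87% of all genes.

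**Figure D1:**
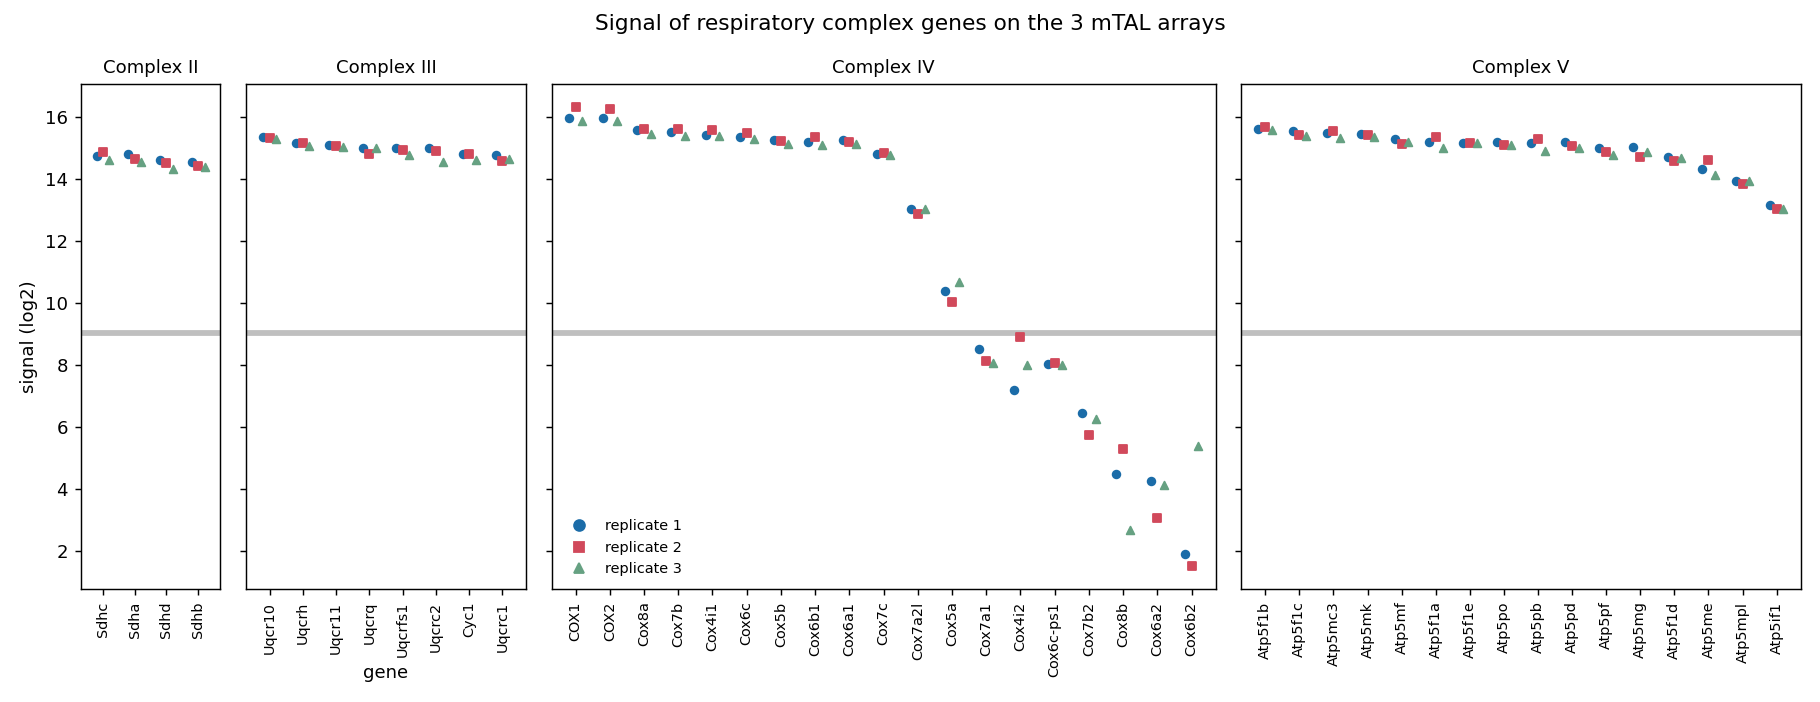
Signal (log2) of each of the 47 genes on the 3 arrays, grouped by complex and ordered by mean signal; the grey band spans the 3 background cutoffs. Complexes II, III and V lie wholly above the band, and 7 genes of complex IV lie below it on every array.

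Complex II is the smallest of the group and the one chain complex with no subunit encoded in mitochondrial DNA. Its flavoprotein Sdha, which oxidises succinate, had signals of 28563, 25738 and 23914 on replicates 1, 2 and 3. Sdhb, the iron-sulfur subunit, had 23965, 21567 and 21498. The membrane anchors Sdhc (27438 ± 2608) and Sdhd (22803 ± 2291) bind ubiquinone. All 4 had their lowest signal on replicate 3, and they lay 5.43 to 5.73 log2 units above the cutoff, with an adjusted p of 0.000127 in limma's test for each. Sdhd was measured by a further probe set, with signals of 13865, 12191 and 10874, which gave the same order of the arrays at a lower level.

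Complex III consists of catalytic and supporting subunits, and the 8 genes measured held both. The redox subunits among these 8 were Cyc1 and Uqcrfs1. Cyc1, cytochrome c1, had 28754, 28717 and 24670 on replicates 1, 2 and 3. The Rieske iron-sulfur protein Uqcrfs1 had 32359, 31369 and 27558. Both were lowest on replicate 3, while replicates 1 and 2 were close. The core proteins were Uqcrc1 (25856 ± 1801) and Uqcrc2 (28983 ± 4517). The small subunits Uqcr10 (40660 ± 879), Uqcrh (35851 ± 1314), Uqcr11 (34117 ± 765) and Uqcrq (31082 ± 2418) had the highest signals of the 8. Uqcrb was measured only by a probe set that also lists Uqcrbl1, at 35968 ± 1410, and is not counted among the members. On the signals as deposited, Uqcr10 and Uqcr11 were among the 5 detected members with the smallest spread, at an SD of 0.03 log2 units each.

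Uqcrc2 had one of the widest spreads among the detected members, an SD of 0.23 log2 units. Its signals were 32648, 30364 and 23936 on replicates 1, 2 and 3. Its other probe set fell further from replicate 1, with 24712, 16302 and 11225, so both probe sets had the same order but differed in size, by 1.48-fold and 2.39-fold from replicate 1 to replicate 3 after each array was centred on its median gene.

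Complex IV, cytochrome c oxidase, has a catalytic core encoded in mitochondrial DNA and a shell of nuclear subunits. The mitochondrial genes COX1 and COX2, which carry the heme and copper centres, had the highest signals of all 14217 genes. COX1 had 64167, 82227 and 60253 on replicates 1, 2 and 3, and COX2 had 63162, 78489 and 59869. Both were clearly highest on replicate 2, and replicates 1 and 3 were close. Of the nuclear subunits, Cox8a (47837 ± 2522), Cox7b (46657 ± 3581), Cox4i1 (44814 ± 3000) and Cox6c (42291 ± 3038) followed. Cox5b, Cox6b1, Cox6a1 and Cox7c had mean signals from 37874 for Cox6b1 down to 28626 for Cox7c. Cox7a2l, a relative of the COX7A subunit that binds complex III to complex IV in supercomplexes, had 8274, 7506 and 8365 and lay 3.96 log2 units above the cutoff (limma, adjusted p = 0.000128).

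Cox5a, a further nuclear subunit, had the lowest signal of all detected members, 1330, 1036 and 1617 on replicates 1, 2 and 3. This was 1.34 log2 units above the cutoff (SE 0.17, limma adjusted p = 0.00354), and its SD of 0.32 log2 units was the largest among the detected members. The value depends on which probe set is read. Another probe set, which lists Cox5a together with the locus LOC100361008 and therefore lay outside the selection, had 39969, 38126 and 38347. It ranged with the other nuclear subunits, and the sources used here do not tell how far it measures Cox5a itself.

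The detection calls of the nuclear subunits of complex IV that exist as tissue isoforms split by isoform. In each of the 5 families with a widely expressed or liver-type form measured alone, that form was detected: Cox4i1, Cox6a1, Cox6b1, Cox7b and Cox8a. In each of the same 5 families the form known from other tissues was not detected, with an adjusted p of 1.00 in limma's test for all of them. Of all genes measured, 51.4% were not detected. Each of these undetected forms rests on a single probe set. A weak probe set can lie below the cutoff, as those of Atp5if1, Atp5me and Atp5po described below did. The calls therefore do not show that a transcript was absent.

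Each form is described against the cutoff, not against its partner, because different probes measured them. Cox4i1, the common form of the subunit that senses ATP, had 43466, 48251 and 42724 on replicates 1, 2 and 3, and Cox4i2, the form known from lung and from hypoxia, had 146, 473 and 257. Cox6a1 had 39205, 37420 and 35257, and the heart and muscle form Cox6a2 had 19.2, 8.26 and 17.4. Cox8a had 49214, 49372 and 44927, and the heart and muscle form Cox8b had 22.3, 38.8 and 6.31. The undetected forms lay below the cutoff on every array and their partners above it on every array.

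The testis forms were also below the cutoff on every array. Cox6b2 had 3.71, 2.84 and 41.9 on replicates 1, 2 and 3, next to 37200, 41390 and 35032 for Cox6b1. Cox7b2 had 86.8, 52.7 and 75.4, next to 46785, 50172 and 43014 for Cox7b. Signals this far below the cutoff carry no order between arrays.

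Cox7a1, the heart and muscle form of COX7A, had 362, 276 and 268 on replicates 1, 2 and 3, all below the cutoff, by 0.79 log2 units on average. Its liver-type partner Cox7a2 was measured only by a probe set that also lists Cox7a2l2, with 48412, 47659 and 49076. Cox4i2 and Cox7a1 came nearer to the cutoff than the other undetected isoforms. With the cutoff moved down to the 90th percentile, Cox4i2 lay 0.04 and Cox7a1 0.24 log2 units above it, with limma adjusted p of 0.70 and 0.33, and 40 of the 47 members were detected there against 59% of all genes. At the highest signal of the bacterial control TrpnX both were called, with 43 of the 47 members and 78.3% of all genes.

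**Figure D2:**
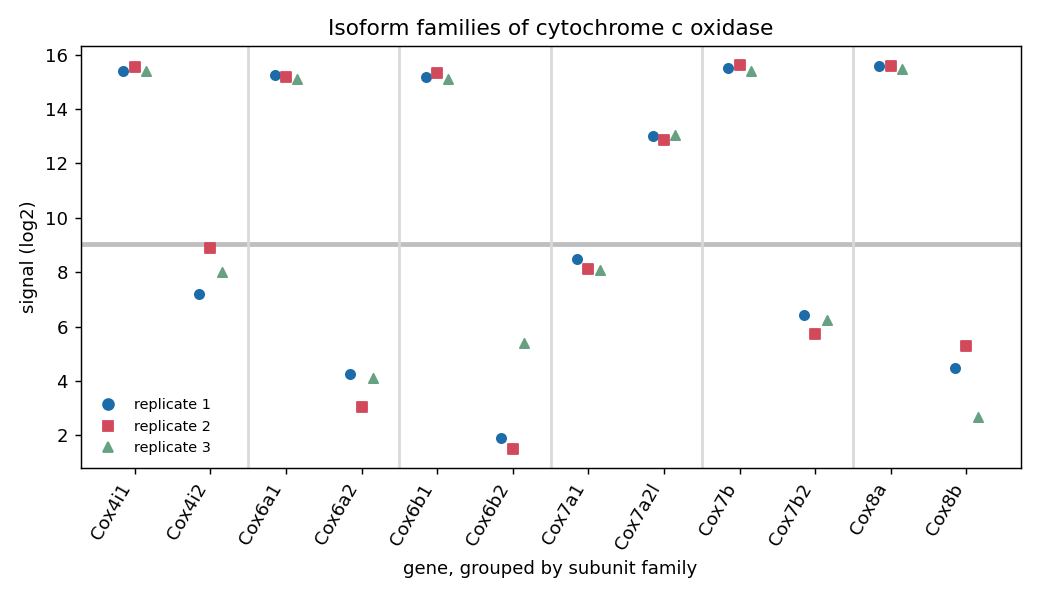
Signal (log2) on the 3 arrays of 12 genes in 6 isoform families of cytochrome c oxidase subunits; the grey band spans the cutoffs. In 5 families the widely expressed or liver-type form lies above the band and the form of lung, muscle or testis below it. COX7A is shown with the related Cox7a2l and without Cox7a2, whose probe set lists a further gene.

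Markers of muscle and mural cells, in which some of the undetected forms are known to be expressed, were measured beside these forms. Of 14 skeletal and cardiac muscle markers, 0 were detected by limma, and their summed signal was 1069, 1264 and 1055 on replicates 1, 2 and 3; none exceeded the cutoff on any array, the highest being Tnni2 at 337 ± 112. This list shares genes with the other-tissue list that set the cutoff, so its low count is partly built in and is no independent check. Of the 73 other-tissue genes 4 were detected. The cutoff was set as a high percentile of these same genes, so a low count follows from its definition. It cannot be set against the 48.6% of all genes measured, and does not show that transcripts of other tissues were absent. Among the 4 was the muscle myosin Myh1 with 42933 ± 2949, which is not on the list of 14 muscle markers. Of 11 mural and smooth muscle markers only Cspg4 was detected, while 1, 6 and 6 of them exceeded the cutoff on replicates 1, 2 and 3 and their summed signal was 3137, 6455 and 5910. Cox4i2, known from such cells as well, was below the cutoff on every array, so its order of arrays is not read. The summed signals of the thin limb, endothelial and leukocyte markers had the same order of arrays as those of the mural and smooth muscle markers. Cspg4 was highest on replicate 1, with 1173, 902 and 899. The part of any of these cells in the Cox4i2 signal was not tested. In bulk tissue fewer cells of a type cannot be told apart from less RNA per cell.

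The stretches before the start sites of both isoforms show how the genes of a detected and an undetected form differ in letters, and are given for Cox8 and Cox7b. Each is the 250 bases upstream of the start of the gene, from RefSeq on the rat assembly GRCr8, 5′ to 3′ on the gene's own strand; capitals mark matches to 1 of 8 motifs. That of Cox8a lies at chr1:213833624-213833873 and that of Cox8b at chr1:205408274-205408523, both on the minus strand, that of Cox7b at chrX:75148786-75149035 and that of Cox7b2 at chr14:37046831-37047080, both on the plus strand.
Cox8a, detected: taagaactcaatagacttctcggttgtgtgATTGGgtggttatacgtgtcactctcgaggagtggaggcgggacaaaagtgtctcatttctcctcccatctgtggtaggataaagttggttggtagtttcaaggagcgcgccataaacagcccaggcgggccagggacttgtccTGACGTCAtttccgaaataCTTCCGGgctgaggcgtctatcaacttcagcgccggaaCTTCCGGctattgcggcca
Cox8b, not detected: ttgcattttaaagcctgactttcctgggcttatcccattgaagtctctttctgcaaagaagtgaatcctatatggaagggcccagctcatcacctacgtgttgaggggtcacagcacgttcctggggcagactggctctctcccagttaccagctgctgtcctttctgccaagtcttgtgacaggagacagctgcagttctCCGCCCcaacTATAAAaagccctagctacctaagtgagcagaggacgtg
Cox7b, detected: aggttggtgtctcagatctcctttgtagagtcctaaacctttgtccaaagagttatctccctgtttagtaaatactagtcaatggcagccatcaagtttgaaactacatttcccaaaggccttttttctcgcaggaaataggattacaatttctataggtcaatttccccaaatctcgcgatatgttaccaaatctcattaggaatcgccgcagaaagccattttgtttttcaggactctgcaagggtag
Cox7b2, not detected: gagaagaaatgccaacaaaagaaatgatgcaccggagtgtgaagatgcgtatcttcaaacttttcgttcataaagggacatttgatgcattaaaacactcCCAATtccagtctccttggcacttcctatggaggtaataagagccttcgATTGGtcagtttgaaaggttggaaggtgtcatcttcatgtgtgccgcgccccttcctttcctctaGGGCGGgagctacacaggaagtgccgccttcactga

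The Cox8a stretch holds a CRE letter match 76 bases before the start and, on the reverse strand, ETS matches 57 and 19 bases and a CCAAT box 220 bases before it. A YY1 match crosses the start and an ERR match follows it, beyond the letters shown. The Cox8b stretch holds a TATA box 39 bases and an SP1 match 49 bases before the start. The Cox7b stretch, of a gene with a signal of 46657 ± 3581, holds none of the 8 motifs, and that of the undetected Cox7b2 holds 2 CCAAT boxes and an SP1 match. A match describes letters and is no evidence of a bound factor.

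Windows from 250 bases before to 50 after the start were found for 38 of the 47 members, 33 detected and 5 not, and for 11733 measured genes. Both strands were searched, and a base could count for several motifs. The forms of the NRF1, YY1 and ERR motifs were picked among several after their matches had been seen, and the TATA box was added after the Cox8b sequence had been read. The ERR motif AAGGTCA, the half-site of the estrogen-related receptors, stood in 8 of the 38, or 21.1%, against 3.2% of all windows and 2.59% of those of detected genes. The YY1 motif AAGATGGC stood in 18.4% of the members, 4.7% of all windows and 6.71% of those of detected genes. The ETS motif CCGGAAG, bound by GABP, stood in 34.2%, 15% and 21% in the same order, and the GC-rich motif of NRF1 in 18.4%, 8.43% and 11.9%. Each of these 4 was found in detected members only, but with 5 undetected windows a count of 0 there says little. The CRE TGACGTCA stood in 5.26% against 2.83%, the CCAAT box CCAAT in 36.8% against 37.3%, the TATA box TATAAA in 13.2% against 8.44%, and the SP1 motif GGGCGG was less frequent in the members, with 39.5% against 57.2% of all windows and 66.4% of those of detected genes. No test was made of these shares.

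Atp5mc3, the subunit c gene described below, is printed because it holds an ERR match 57 bases before its start, on the reverse strand, and CCAAT boxes 77 and 218 bases before it. The stretch lies at chr3:79220665-79220914 of GRCr8 on the minus strand. An NRF1 match follows the start, beyond the letters shown.
Atp5mc3, detected: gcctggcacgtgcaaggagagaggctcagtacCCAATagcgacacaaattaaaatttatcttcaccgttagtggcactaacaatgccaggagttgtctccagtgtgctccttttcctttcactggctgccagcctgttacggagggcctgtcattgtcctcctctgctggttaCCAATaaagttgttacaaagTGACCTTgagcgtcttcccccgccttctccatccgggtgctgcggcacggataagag

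Complex V couples a membrane rotor to the catalytic head that makes ATP. The head subunits were all detected. The catalytic beta subunit Atp5f1b had the highest signal of the complex, with 49323, 52220 and 48596 on replicates 1, 2 and 3. The alpha subunit Atp5f1a had 37155, 42019 and 32716 and the rotating gamma subunit Atp5f1c 47615, 43953 and 42982. The delta subunit Atp5f1d stood at 25779 ± 1165. The epsilon subunit Atp5f1e, with 36752, 36095 and 36478, had the smallest spread of all members without centring, an SD of 0.01 log2 units.

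The stalk that holds the head in place is built from Atp5po (the oligomycin sensitivity subunit), Atp5pb, Atp5pd and Atp5pf, whose mean signals ran from 35646 for Atp5pb down to 30111 for Atp5pf. Atp5mc3 encodes subunit c, which forms the rotor ring, and had 45753, 47769 and 40637. The other genes of subunit c were measured by probe sets that list a second gene each, Atp5mc1 with Atp5mc1l1 at 37036 ± 1845 and Atp5mc2 with Atp5mc2l1 at 25626 ± 1748. Of the membrane subunits, Atp5mk stood at 43163 ± 1099, Atp5mf at 37451 ± 2261 and Atp5mg at 29879 ± 3291. Atp5me had a wider spread, with 20430, 24796 and 17971, highest on replicate 2. The small proteolipid gene Atp5mpl had 15246 ± 642.

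Atp5if1, the inhibitor that stops the synthase from running backwards and hydrolysing ATP when respiration fails, had the lowest signal of complex V, with 9046, 8367 and 8280 on replicates 1, 2 and 3. It lay 4.05 log2 units above the cutoff (limma, adjusted p = 0.000127). The call rests on 1 of its 3 probe sets. The others had mean signals of 321 ± 33.7 and 86.1 ± 23.2 and were below the cutoff on every array.

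The same held for Atp5me and Atp5po. Atp5me had a further probe set at 264 ± 133 and Atp5po one at 282 ± 7.85, both below the cutoff on every array. When the weakest probe set stood for each gene, Atp5if1, Atp5me and Atp5po lay 2.27, 0.73 and 0.52 log2 units below their cutoff, and 37 of the 47 members were detected against 37.3% of all genes.

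**Figure D3:**
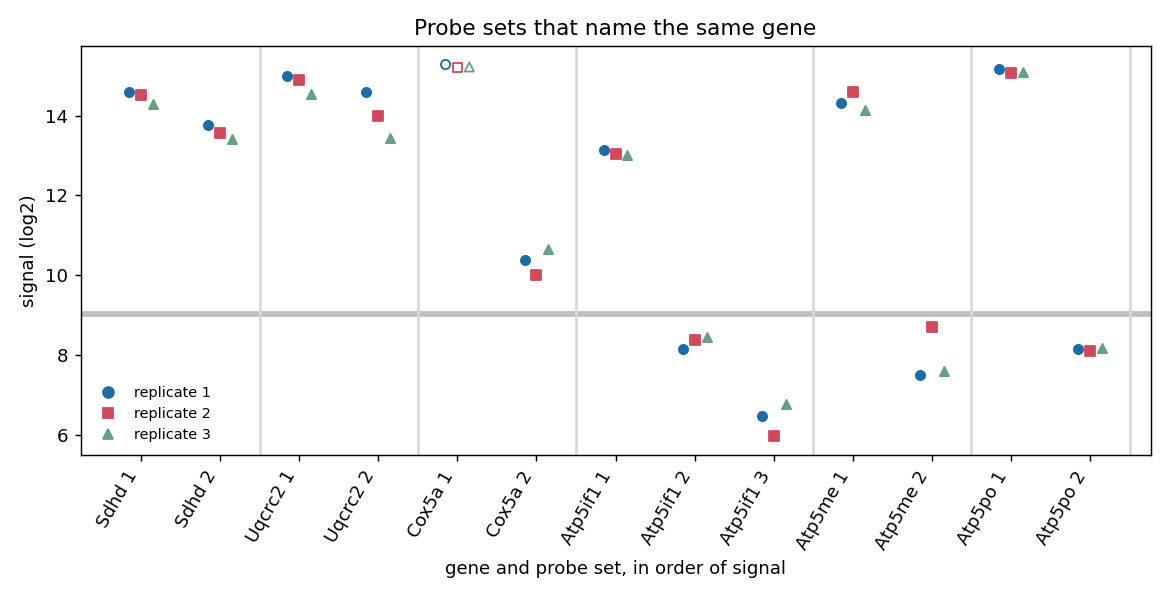
Signal (log2) on the 3 arrays of every probe set that names Sdhd, Uqcrc2, Cox5a, Atp5if1, Atp5me or Atp5po, numbered by signal; hollow symbols mark the probe set that lists Cox5a with another gene, and the grey band spans the cutoffs. For Sdhd and Uqcrc2 both probe sets lie above the band, and for Atp5if1, Atp5me and Atp5po only the brightest does.

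Several members have pseudogenes named after them in the rat genome. The RefSeq table of GRCr8 lists 49 pseudogenes named after 23 of the members, with 8 for Atp5mg and 4 each for Atp5f1c and Atp5pf. The probe sequences were not used here, so how far the signals of these genes include transcripts of the pseudogenes was not tested. The single pseudogene measured as such, Cox6c-ps1, had 257, 267 and 252 and was not detected, while Cox6c had 41766, 45557 and 39550. Cytochrome c, the carrier between complexes III and IV, was measured by 2 probe sets that each list Cycs with 2 further genes, at 40321 ± 1482 and 27938 ± 3590, and it is not counted among the members.

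On the signals as deposited, without centring, the members spread little over the arrays. Among the 40 detected, the median SD was 0.10 log2 units, against 0.15 for the 7727 genes whose mean lay above the cutoff. For the 777 bright genes, those whose log2 signal averaged over 13, it was 0.11. A different measure is the SD over the arrays of a set's median level, after each array was centred on its median gene. It was 0.14 log2 units for the detected members and 0.09 for the bright genes. It cannot be set against the SDs of single genes, which were taken without centring. Without centring, the 5 detected members with the smallest SD were Atp5f1e, Uqcr10, Uqcr11, Atp5mk and Cox7c. The 5 with the largest, also without centring, were Cox5a, COX1, Uqcrc2, Atp5me and COX2.

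The detected members were lower on replicate 3 than on replicate 1, by small amounts. After centring on the median gene, 39 of the 40 detected members were lower on replicate 3 than on replicate 1, by a median of 1.18-fold. The same held for 69.1% of all genes above the cutoff and for 81.6% of the 777 bright genes, whose median was 1.12-fold. It also held for 31 of 33 complex I subunits, 70 of 73 mitochondrial ribosomal proteins and 58 of the 60 assembly and other chain genes described below. Their median differences were -0.24, -0.20 and -0.26 log2 units, against -0.24 for the detected members. Replicate 3 was the lowest array for 32 of the 40, against 40.3% of the genes above the cutoff and 49.3% of the bright genes. The centring itself moved the difference between these arrays by 0.12 log2 units, as much as the members' own median difference of -0.12 without it, and without centring 37 of the 40 members and 483 of the 777 bright genes were lower. With each array scaled to a common 75th percentile the counts were 38 and 505. Under quantile normalization 30 of the 40 members were lower, by a median of 1.05-fold, against 443 of the 777 bright genes by 1.02-fold, and replicate 3 was the lowest array for 17 of the 40. No test is possible between single arrays.

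By complex, the median difference of replicate 3 minus replicate 1 was -0.32 log2 units for complex II, -0.24 for complex III, -0.20 for the detected nuclear subunits of complex IV and -0.26 for complex V. Without centring the same values were -0.21, -0.12, -0.08 and -0.14, and under quantile normalization they were -0.20, -0.10, -0.04 and -0.10. Under quantile normalization 4 of 4, 6 of 8, 7 of 10 and 13 of 16 genes were lower on replicate 3, in the same order of complexes. After centring, complex III was highest on replicate 1 in 8 of 8 genes and complex V in 13 of 16. The same held for 54.9% of the genes above the cutoff and 68.1% of the bright genes. The nuclear subunits of complex IV were highest on replicate 1 in 5 of 10 and on replicate 2 in 4 of 10. Without centring, 7 of 8 genes of complex III and 11 of 16 of complex V were highest on replicate 1. Of the nuclear subunits of complex IV, 2 of 10 were then highest on replicate 1 and 6 on replicate 2. Among the 777 bright genes these counts were 338 and 225. Under quantile normalization the counts highest on replicate 1 were 6 of 8, 11 of 16 and 3 of 10 for complexes III, V and IV, against 312 of the 777. These differences between complexes were not tested.

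COX1 and COX2, encoded in mitochondrial DNA, were highest on replicate 2. After centring, COX1 was 1.29-fold and COX2 1.25-fold above the mean of the other arrays there, while the median of the 38 nuclear detected members was 0.98-fold. Single nuclear members reached similar values there, with 1.27-fold for Atp5me, 1.18-fold for Atp5f1a and 1.16-fold for Atp5pb. Of these 38, 8 were highest on replicate 2, against 23.9% of the genes above the cutoff and 18.9% of the bright genes. Without centring COX1 was 1.32-fold and COX2 1.28-fold above. Quantile normalization removes nearly all of the difference by construction, since the genes with the top signal receive nearly the same value on each array, and gave 1.01-fold for both. Each of the pair rests on 1 probe set, and other mitochondrially encoded genes were not analysed here.

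**Figure D4:**
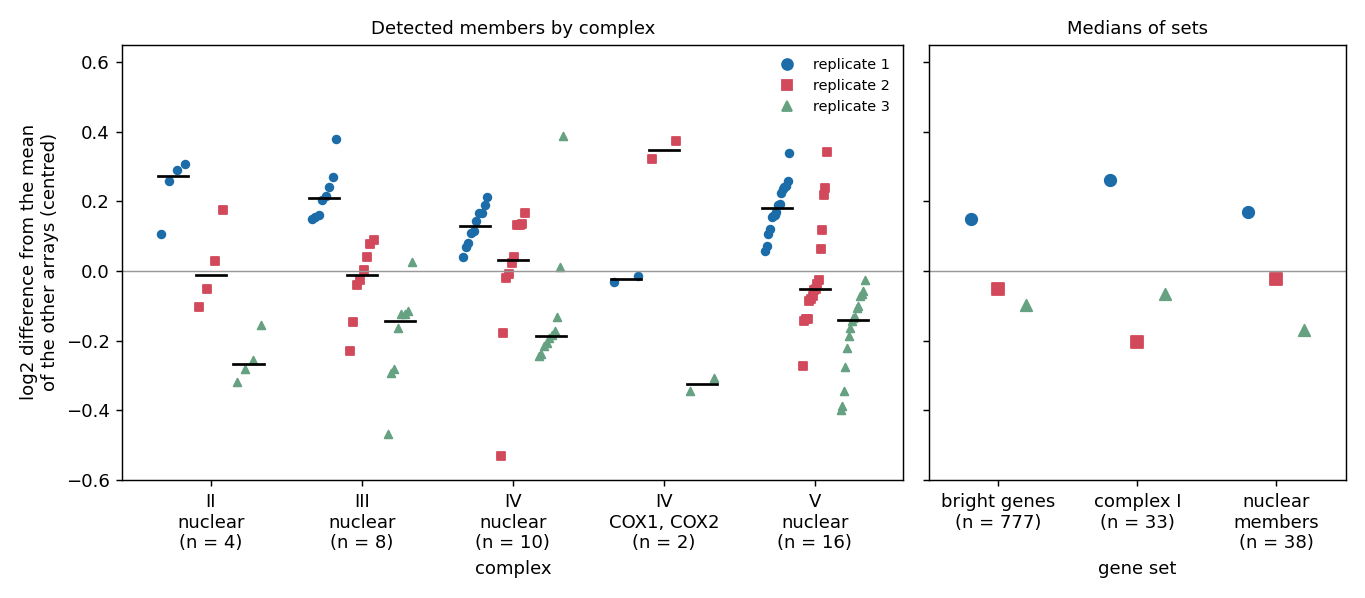
Left, log2 difference between 1 array and the average of the others for each detected member, by complex, after centring on the median gene; black lines are medians; right, medians of 777 bright genes, 33 complex I subunits and the 38 nuclear detected members. COX1, COX2 and 8 of the 38 nuclear members have their highest value on replicate 2, and most nuclear members lie above 0 on replicate 1 and below 0 on replicate 3.

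The subunits of complex I, which share the inner membrane with these complexes, had another order of the arrays. They too were mostly lower on replicate 3 than on replicate 1. Their median deviation from the mean of the other arrays was 0.26, -0.20 and -0.06 on replicates 1, 2 and 3, so they were lowest on replicate 2, whereas the 38 nuclear members had 0.17, -0.02 and -0.17. The mitochondrial ribosomal proteins had 0.29, -0.23 and -0.04. No array has a replicate of its own, and the differences between these sets were not tested.

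Other measures moved with the arrays. The proximal tubule, which is rich in mitochondria as well, was seen with 2, 10 and 18 of 25 markers above the cutoff and a summed signal of 7622, 30513 and 99691 on replicates 1, 2 and 3. The 14 thick ascending limb markers were all detected, led by Umod at 57036, with a summed signal of 271866, 264606 and 248143. Thin limb markers summed to 30133, 77879 and 44632, endothelial markers to 16755, 28462 and 26024, principal cell markers to 12212, 17352 and 27220, intercalated cell markers to 2044, 4006 and 4467, and leukocyte markers to 2819, 5337 and 4710. The log2 ratio of the 3' over the 5' control probe set of Actb, high when RNA is degraded, was 1.48, 1.18 and 1.95, that of Gapdh 0.51, 0.43 and 0.60 and that of hexokinase 1.39, 1.39 and 1.73. The part of these in the differences between arrays was not tested.

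Genes that assemble the complexes or supply their cofactors were detected in most cases. Of 69 listed genes 60 were measured and 54 detected, against 48.6% of all genes. A 99th-percentile cutoff left 9 of these 60, against 5.87% of all genes. The 54 included 4 of 4 assembly factors of complex II, 7 of 8 of complex III, 25 of 28 of complex IV, 5 of 6 of complex V, and 13 of 14 other chain components such as enzymes of ubiquinone synthesis. The highest signals were those of Ndufa4, a subunit first assigned to complex I and now counted with complex IV (32191 ± 2865), Coa5 (18693 ± 1777) and Smim20 (12839 ± 1097), both assembly factors of complex IV. The call of Coa5 was lost with its weakest probe set (limma, adjusted p = 0.0726). The median level of the 60 genes was 1.91 ± 0.14 log2 units above the median gene.

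Not detected were the complex III factor Lyrm7 (133 ± 21.5), the complex IV factors Taco1 (117 ± 23.6), which activates COX1 translation, Coa7 (364 ± 65.2) and Tmem177 (907 ± 346), the complex V factor Tmem70 (207 ± 14.2) and the ubiquinone methyltransferase Coq5 (674 ± 169). Tmem177 and Coq5 lay above the cutoff on every array but missed the threshold, with limma adjusted p of 0.0744 and 0.0906. Tmem177 had 1174, 516 and 1030 on replicates 1, 2 and 3 and passed without replicate 2 (adjusted p = 0.0118). Both passed when Myh1 was left out of the cutoff, with adjusted p of 0.0195 for Tmem177 and 0.0104 for Coq5. Tmem70 and Lyrm7 belong to complexes whose measured subunits were all detected. Neither value shows that a transcript was absent, since a weak probe set can lie below the cutoff, as those of Atp5po and Atp5if1 did.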

How the data were processed

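The authors deposited 1 intensity per probe set and array for 31099 probe sets of an Affymetrix array. Not given in the sources used here is how probes were summarised and whether arrays were normalized. The mean without the lowest and highest 2% of values was 1000.3 on every array, and the median signal was 256, 287 and 267. By GEO's platform annotation 20826 probe sets named 1 gene, 436 named several and 9780 named none, and 57 controls were left out. Of the 53 member probe sets, 51 had a gene identifier in the RefSeq table of GRCr8.

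Log2 was taken without a pseudocount, and the SDs of single genes were taken without centring. Detection used limma 3.58.1 in R 4.3.3 (lmFit, eBayes), tested on simulated data. The other-tissue list held 79 genes, of which 73 were measured, and includes Myh1. Members, lists and motifs were chosen with earlier results of these data known. By the rule for named genes, members were named where they were undetected, among the 4 highest or 3 lowest signals of a complex, isoforms, or among the 5 largest or smallest SDs, and of the assembly and other chain genes the 3 with the highest signal and those not detected. Other members are named to describe their complex. Myh1, Umod, Tnni2 and Cspg4 were named after their values were seen. Alternatives were other cutoffs, scalings and probe sets, a pseudocount of 16, a filter on dim genes, a call on all arrays without a test, and each replicate left out. The number of arrays limits the precision.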

Additional observations from a re-analysis of the deposited data

How the results depend on the processing

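The count of 40 detected members held under all alternatives tried except the following. It was 39 with the cutoff at the 99th percentile, 43 at the highest TrpnX signal and 37 with the weakest probe set of each gene. At the 99th percentile 834 genes in all (5.87%) and 9 of the assembly and other chain genes were detected, and at TrpnX 11138 in all. The counts without one replicate were 40 for the members and 6422 to 6717 for all genes. With the weakest probe set the members' median level was 6.65 instead of 5.53, and without one replicate it was 5.46 to 5.58. Log2 distances from the cutoff changed sign as follows. With the weakest probe set they were -2.27 for Atp5if1, -0.73 for Atp5me and -0.52 for Atp5po. At the 99th percentile they were -1.73 for Cox5a, -2.34 for Tmem177 and -2.72 for Coq5. At the 90th percentile they were 0.043 for Cox4i2, 0.032 for Cox6c-ps1, 0.24 for Cox7a1 and 0.51 for Coa7. At TrpnX they were 2.37 for Cox4i2, 2.35 for Cox6c-ps1, 2.56 for Cox7a1, 0.47 for Cox7b2, 2.83 for Coa7, 2.03 for Tmem70, 1.38 for Lyrm7 and 1.19 for Taco1. The lower and higher cutoffs and the weaker probe sets produce these changes by construction. The comparison of array directions without centring and under other scalings was chosen after seeing the data. No paired analysis was possible because the samples form 1 group.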
